A study of Rattus norvegicus with 6 samples.

Results

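The miR-34 family was followed as 5 mature miRNAs, rno-miR-34a-5p, rno-miR-34b-5p, rno-miR-34b-3p, rno-miR-34c-5p and rno-miR-34c-3p (rno, Rattus norvegicus; left out below), out of 1191 mature IDs in small RNA libraries from rat hearts. Each was taken by its mature ID, and each had 1 row in the deposited count table. There were 3 hearts labelled ischemia-reperfusion, whose left anterior descending artery was tied off for 0.5 h and then reopened for 0.5 h, and 3 hearts labelled normal with control treatment. All 6 were labelled wild type (WT). The strain, age and sex of the rats, the part of the heart sampled and a sham operation are not described in the labels used here, so surgery and ischemia-reperfusion cannot be told apart. The labels number the hearts and say nothing more on their origin, and p-values therefore reflect only the spread among these 6 hearts, which may be technical.

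miR-34 genes are direct transcriptional targets of the tumour suppressor p53, which responds to DNA damage and other stress. Their products lower the output of messenger RNAs for cell cycle and survival proteins, among them Cdk6, Bcl2 and Sirt1. In mouse hearts miR-34a has been linked to ageing and to infarction, whereas miR-34b and miR-34c, made from a shared transcript, are best known from testis and from epithelia with motile cilia. miRNAs bind their targets mainly through the seed, bases 2 to 8 counted from the 5′ end.

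The mature sequences are shown because the seed divides the family into a pair of sets and because a few bases decide which row a tag is counted in. Capitals mark the seed. The sequences are those listed in the deposited table, and all 5 matched a RefSeq entry on GRCr8 letter for letter, as did miR-449a-5p, a relative that is not a member.
miR-34a-5p: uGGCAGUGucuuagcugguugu
miR-34b-5p: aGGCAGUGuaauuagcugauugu
miR-34c-5p: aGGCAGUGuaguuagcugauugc
miR-449a-5p: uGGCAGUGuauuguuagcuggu
miR-34b-3p: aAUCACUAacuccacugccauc
miR-34c-3p: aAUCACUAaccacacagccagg

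The 3 members from the 5p arm carried the seed GGCAGUG, which among all IDs in the table was otherwise found in miR-449a-5p alone. The 3p arms of miR-34b and miR-34c shared the seed AUCACUA, which no other ID carried. miR-34b-5p and miR-34c-5p had 21 of 23 bases in common, and miR-34b-3p and miR-34c-3p had 17 of 22.

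On GRCr8 the miR-34a precursor lies on chromosome 5, plus strand, at 165815952 to 165816053, inside the long noncoding RNA gene LOC103692514. The other 2 precursors lie on chromosome 8, minus strand, with miR-34b at 60306609 to 60306692 and miR-34c at 60306091 to 60306167, and 441 bases separate them. miR-34c lies inside the protein-coding gene Hoatz, whose product is known from cilia and flagella in mice, and miR-34b overlaps its edge. These positions come from the RefSeq match, because for the deposited counts a build was not given in the sources used here.

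Total all-isoform counts were 1376947 to 2814802 in ischemia-reperfusion libraries and 6963312 to 8429988 in normal libraries, so depth and group cannot be told apart. A single count was worth 0.345 to 0.647 counts-per-million units (CPM) in ischemia-reperfusion libraries and 0.127 to 0.158 CPM in normal libraries. The smallest count listed anywhere in the table was 2, so a blank cell can stand for 0 or 1. CPM values are of all-isoform counts, with the library size scaled by edgeR's TMM factor. Markers fixed for heart muscle, such as miR-1b and miR-133a-3p, made up 22% to 31.2% of counts in ischemia-reperfusion libraries and 22.5% to 40.5% in normal libraries, and all 7 were detected. The 40.5% was in normal replicate 1, and no other library was above 31.2%. In normal replicate 1 miR-1-3p was at 157600 CPM, against 21230 to 33630 CPM in every other library. miR-1b was at 249000 CPM in normal replicate 1 and at 245600 CPM in ischemia-reperfusion replicate 3. In libraries of heart tissue, fewer cells of a type and less of the miRNA per cell cannot be told apart.

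In levels, miR-34a-5p led the family in every library. It ranked 103rd to 107th among the miRBase-named miRNAs of each library, of which 332 to 444 had counts. miR-34c-5p ranked 147th to 163rd and miR-34b-5p 211th to 254th. Among the 3p arms, miR-34b-3p ranked 264th to 297th in the 5 libraries that listed it, and miR-34c-3p 320th to 388th in 4 libraries. Adaptor ligation favours some small RNAs over others, so levels of different miRNAs compare counts and not molecules.

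rno-miR-34a-5p, the p53 target best studied in the heart, had 209, 316 and 419 counts in ischemia-reperfusion replicates 1 to 3, and 999, 1286 and 1561 counts in normal replicates 1 to 3. Scaled, these were 135, 130 and 145 CPM in ischemia-reperfusion hearts, against 157, 164 and 206 CPM in normal hearts. All 3 ischemia-reperfusion hearts thus lay below all 3 normal hearts, as the plot of CPM by library shows. Groups did not overlap for 41.0% of the miRBase-named miRNAs tested, so this separation was common. miR-34a-5p averaged 137 ± 7.5 CPM in ischemia-reperfusion hearts and 176 ± 26.6 CPM in normal hearts (SD, n = 3 each). The log2 fold change was -0.36 ± 0.17 (SE), with a 95% interval of -0.77 to 0.044, and it did not pass edgeR's quasi-likelihood test (adjusted p = 0.139).

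The separation depended on the library scaling. In CPM with no scaling factor, miR-34a-5p was at 152, 144 and 149 in ischemia-reperfusion hearts and at 144, 156 and 185 in normal hearts, and the groups overlapped. In CPM of the miRBase-named total, its mean was 163 ± 10.7 in ischemia-reperfusion hearts and 163 ± 21.6 in normal hearts (SD, n = 3 each). With upper-quartile factors miR-34a-5p passed as lower (log2 fold change -0.87, adjusted p = 0.0151), a setting under which 47.5% of all tested miRBase-named miRNAs passed as lower. Without normal replicate 1, the log2 fold change was -0.51 (edgeR adjusted p = 0.0677).

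**Figure D1:**
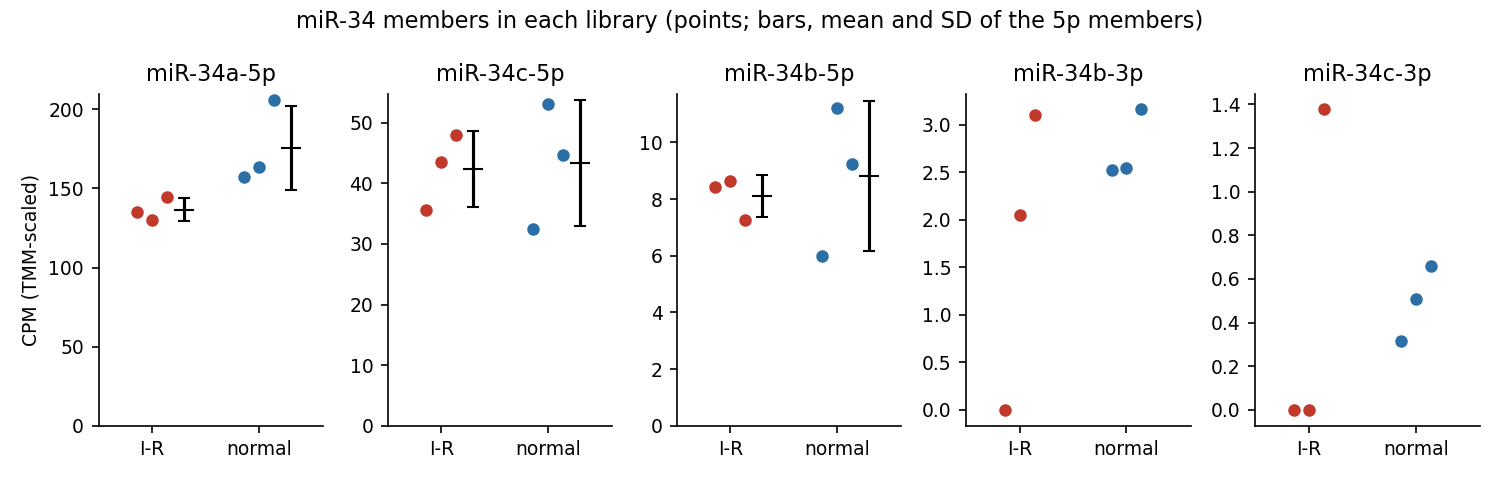
CPM of each member (y axis, TMM-scaled; a separate linear scale per panel) in 3 ischemia-reperfusion (I-R, red) and 3 normal (blue) libraries, 1 point per library in order of replicate number, with mean and SD bars for the 5p members. The miR-34a-5p points run from 130 to 145 CPM in ischemia-reperfusion hearts and from 157 to 206 CPM in normal hearts, while in the other 4 panels the groups overlap.

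rno-miR-34c-5p, the next most abundant member, had 55, 106 and 139 counts in ischemia-reperfusion replicates 1 to 3, and 206, 417 and 338 counts in normal replicates 1 to 3. This came to 35.6, 43.6 and 48.0 CPM in ischemia-reperfusion hearts, against 32.5, 53.1 and 44.6 CPM in normal hearts. The lowest and the highest library were both normal, and the ischemia-reperfusion values lay between them. Means were 42.4 ± 6.29 CPM in ischemia-reperfusion hearts and 43.4 ± 10.4 CPM in normal hearts (SD, n = 3 each). The log2 fold change was -0.03 ± 0.26 (SE; edgeR adjusted p = 0.923). Its 95% interval, -0.65 to 0.58, covers changes between 0.639 and 1.5 times the normal level, so a change within those bounds is not excluded.

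The row of rno-miR-34b-5p held 13, 21 and 21 counts in ischemia-reperfusion replicates 1 to 3, and 38, 88 and 70 counts in normal replicates 1 to 3. Its values were 8.41, 8.63 and 7.25 CPM in ischemia-reperfusion hearts, against 5.99, 11.2 and 9.25 CPM in normal hearts. As with miR-34c-5p, normal replicate 1 was the lowest and normal replicate 2 the highest. The means were 8.10 ± 0.741 CPM in ischemia-reperfusion hearts and 8.81 ± 2.64 CPM in normal hearts (SD, n = 3 each; log2 fold change -0.13 ± 0.40, SE; edgeR adjusted p = 0.814).

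rno-miR-34b-3p, from the opposite arm of the miR-34b precursor, was blank in ischemia-reperfusion replicate 1 and had 5 and 9 counts in replicates 2 and 3, against 16, 20 and 24 counts in normal replicates 1 to 3. In CPM it was at 2.06 and 3.11 in the ischemia-reperfusion libraries that listed it, and at 2.52, 2.55 and 3.17 in normal libraries. The blank library is the shallowest, where 2 counts would be 1.29 CPM. The log2 fold change was -0.54 ± 0.75 (SE; edgeR adjusted p = 0.577), and without ischemia-reperfusion replicate 1 it was 0.00017. The count filter asked for 2.05 CPM of the library total in at least 3 libraries of either group. miR-34b-3p reached this in all 3 normal libraries and in 2 ischemia-reperfusion libraries. The normal group alone thus met the filter, and the ischemia-reperfusion group alone did not.

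rno-miR-34c-3p had 4 counts in ischemia-reperfusion replicate 3 and was blank in replicates 1 and 2, against 2, 4 and 5 counts in normal replicates 1 to 3. It did not reach the filter in any library and was not tested. miR-449a-5p, the same-seed relative, was likewise blank in ischemia-reperfusion replicates 1 and 2, with 5 counts in replicate 3, against 2, 5 and 2 counts in normal replicates 1 to 3. At such counts neither group can be ranked above the other.

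Of the 5 members 4 were tested, and 0 passed edgeR's quasi-likelihood test at adjusted p 0.05, where 42.7% of all 524 entries passed (33.4% higher and 9.35% lower) and 14.8% of the 305 miRBase-named miRNAs did (0.984% higher and 13.8% lower). No member had an unadjusted p under 0.05, and 0 passed DESeq2 or limma-voom. The count became 1 with upper-quartile factors, with which 63.7% of all entries passed. The authors' deposited table gives folds of group means, taken with 10 added, for 3 members: 0.948 for miR-34a-5p (p = 0.50, false discovery rate 0.693), 1.10 for miR-34c-5p (p = 0.486, false discovery rate 0.680) and 0.972 for miR-34b-3p (p = 0.725, false discovery rate 0.859).

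**Figure D2:**
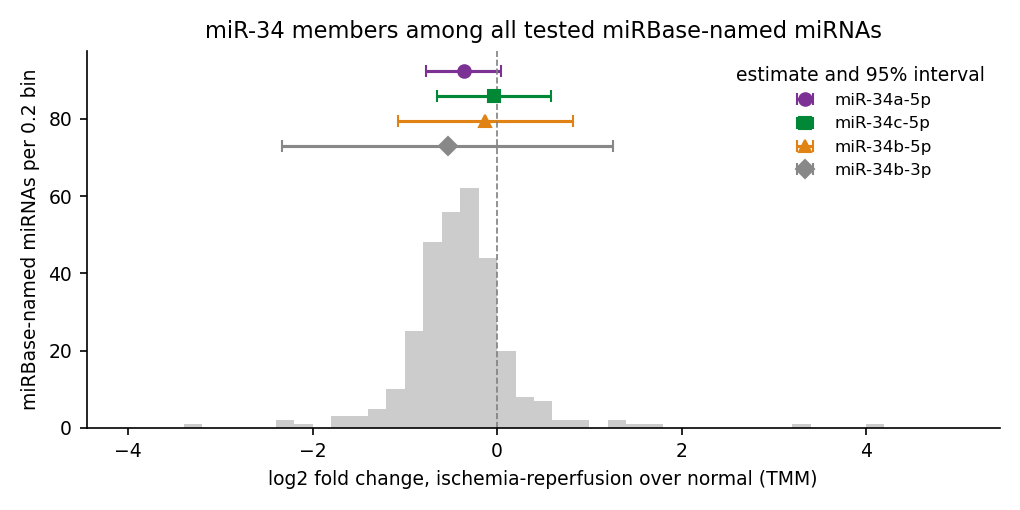
Histogram of log2 fold changes (x axis, ischemia-reperfusion over normal, TMM factors) of the 305 tested miRBase-named miRNAs (y axis, number per bin of 0.2), with each tested member's estimate and 95% interval above it. All 4 intervals include 0, and the median of the grey distribution is -0.40.

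The scaling moved the whole table. The median over miRBase-named miRNAs was -0.40 with TMM and ran from -0.89 with upper-quartile factors to -0.07 with factors from miRBase-named miRNAs. A scaling factor shifts all entries by about the same amount, so a distance from that median hardly depends on it by construction and is given as a description. Over 5 scalings miR-34a-5p lay 0.025 to 0.046 log2 units above the median, miR-34b-5p 0.26 to 0.29 above and miR-34c-5p 0.36 to 0.38 above. miR-34b-3p, which rests on the blank library, was at -0.13 from it with TMM, whereas without ischemia-reperfusion replicate 1 its log2 fold change of 0.00017 was above the median of -0.26. With TMM, miR-34a-5p stood at percentile 54.6 of the miRBase-named log2 fold changes and miR-34c-5p at percentile 83.9.

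**Figure D3:**
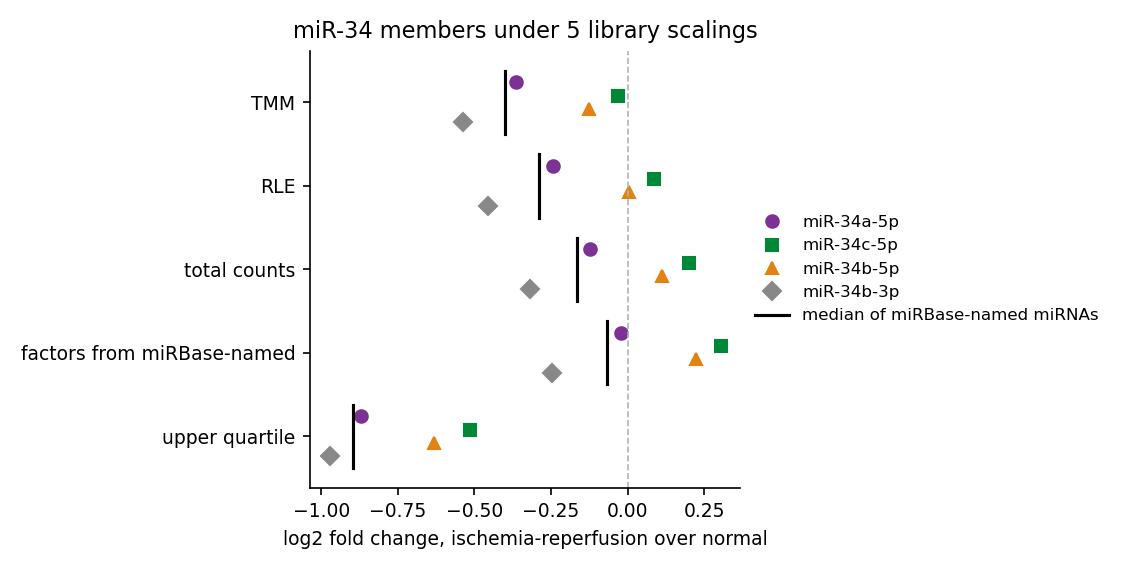
Log2 fold change (x axis, ischemia-reperfusion over normal) of the 4 tested members under 5 library scalings (rows), with the median of miRBase-named miRNAs as a black line. The markers and the line shift together, and miR-34c-5p is on the negative side with TMM (-0.03) and upper-quartile factors (-0.52) and on the positive side with the other 3.

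Counts of 2 members within a library can be set against each other with no scaling, which asked whether the balance inside the family differed between the groups. The log2 ratio of miR-34a-5p to miR-34c-5p was 1.92, 1.57 and 1.59 in ischemia-reperfusion replicates 1 to 3, and 2.27, 1.62 and 2.21 in normal replicates 1 to 3. There were thus 3.23 counts of miR-34a-5p to each of miR-34c-5p in ischemia-reperfusion hearts and 4.10 in normal hearts as geometric means. The groups overlapped through normal replicate 2, and the difference of -0.34 log2 units did not pass (exact permutation test, two-sided p = 0.2, adjusted p = 0.8 over 4 ratios; the smallest p that 3 against 3 allows is 0.1).

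The log2 ratio of the miR-34b-5p row to miR-34c-5p was -2.04, -2.31 and -2.70 in ischemia-reperfusion replicates 1 to 3, and -2.42, -2.24 and -2.26 in normal replicates 1 to 3. The lowest and the highest were both ischemia-reperfusion hearts. It averaged -2.35 ± 0.331 in ischemia-reperfusion hearts and -2.31 ± 0.10 in normal hearts (SD, n = 3 each; p = 0.8 by an exact permutation test, adjusted p = 0.8), which is 0.196 and 0.202 counts of miR-34b-5p for each count of miR-34c-5p. The log2 ratio of miR-34b-3p to the miR-34b-5p row, which is not an arm ratio of 1 precursor since the counts of that row cannot be assigned to a gene (below), was -2.63 ± 1.88 in ischemia-reperfusion hearts and -1.62 ± 0.451 in normal hearts (SD, n = 3 each; p = 0.7 by an exact permutation test, adjusted p = 0.8), with the blank library at -4.76. For miR-34c-3p to miR-34c-5p it was -6.49 ± 1.41 in ischemia-reperfusion hearts and -6.28 ± 0.305 in normal hearts (SD, n = 3 each; p = 0.8 by an exact permutation test, adjusted p = 0.8). The 5p arm of miR-34c gave nearly all of its counts in both groups.

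Together the counts with the GGCAGUG seed came to 179, 182 and 202 CPM in ischemia-reperfusion hearts and 196, 229 and 260 CPM in normal hearts. miR-34a-5p made up 72.8% ± 2.32 of them in ischemia-reperfusion hearts and 77.0% ± 4.70 in normal hearts (SD, n = 3 each). The share of miR-34c-5p was 22.5% ± 2.28 in ischemia-reperfusion hearts and 18.9% ± 3.71 in normal hearts (SD, n = 3 each), and that of miR-449a-5p was at most 0.856% in any library. The 95% Wilson interval of the miR-34a-5p share was widest in ischemia-reperfusion replicate 1, at 70.1% to 80.1%, and it covers counting error only.

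**Figure D4:**
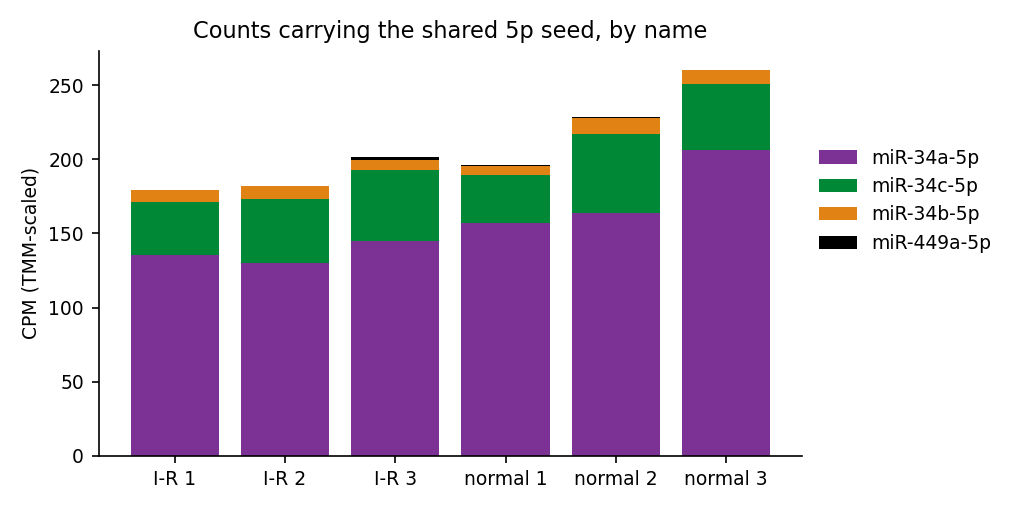
CPM (y axis, TMM-scaled) of all-isoform counts with the shared 5p seed in each library (bars), stacked by the name they were counted under. miR-34a-5p fills 71.3% to 80.2% of every bar, and the ischemia-reperfusion bars reach 179 to 202 CPM against 196 to 260 CPM in normal hearts.

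The sequences behind these counts differed between members. For miR-34a-5p the listed mature sequence was also the most abundant tag and held 50.5% of its counts over all libraries. For miR-34c-5p it held 30.8%, and for miR-34b-3p 52.7%. Among the 281 miRBase-named miRNAs with 100 or more counts, the median share of the listed sequence was 16.4% (quartiles 4.70% and 35.7%).

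By library, the listed sequence held 46.4%, 48.1% and 46.1% of miR-34a-5p counts in ischemia-reperfusion replicates 1 to 3, and 48.3%, 51.4% and 53.5% in normal replicates 1 to 3. Every ischemia-reperfusion heart was below every normal heart. How often this share separated the groups among other miRNAs was not counted, so the separation cannot be called particular to miR-34a-5p. The means were 46.9% ± 1.09 in ischemia-reperfusion hearts and 51.1% ± 2.59 in normal hearts (SD, n = 3 each). By an exact permutation test p was 0.1, the smallest that 3 against 3 can give, with an adjusted p of 0.3 over 3 members. The Wilson intervals of ischemia-reperfusion replicate 2 (42.6% to 53.6%) and normal replicate 3 (51.0% to 56.0%) overlapped, whereas those of ischemia-reperfusion replicate 3 (41.3% to 50.8%) and normal replicate 3 did not. Depth moved with this share, and its part was not tested. For miR-34c-5p the share was 30.7% ± 4.80 in ischemia-reperfusion hearts and 31% ± 2.21 in normal hearts (SD, n = 3 each; p = 1.0 by an exact permutation test, adjusted p = 1.0). For miR-34b-3p it was 66.7% ± 47.1 in the 2 ischemia-reperfusion libraries that listed it and 51.0% ± 6.27 in 3 normal libraries (SD; p = 0.7 by an exact permutation test, adjusted p = 1.0).

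The miR-34b-5p row stood apart, since none of its counts in any library was the listed sequence. Of its 251 counts, 246 (98.0%) were 1 other sequence of the same length. The 3 sequences below are shown because they differ at only 2 positions, which are in capitals.
miR-34b-5p, listed: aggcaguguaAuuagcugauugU
miR-34b-5p, counted: aggcaguguaGuuagcugauugU
miR-34c-5p, listed: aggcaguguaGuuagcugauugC

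Counted from the 5′ end, the counted sequence differs from the listed miR-34b-5p by A11G and from miR-34c-5p by C23U. The RefSeq hairpins, in which capitals mark the mature arms, show the same.
Mir34b: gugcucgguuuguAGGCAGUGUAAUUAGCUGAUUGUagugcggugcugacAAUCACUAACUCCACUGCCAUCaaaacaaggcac
Mir34c: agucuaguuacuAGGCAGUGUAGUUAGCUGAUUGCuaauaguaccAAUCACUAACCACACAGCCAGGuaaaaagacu

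Read from its 5′ end, the counted sequence matched the miR-34c hairpin over 22 bases and the miR-34b hairpin over 10. It was 1 base away from each listed mature sequence, so its counts cannot be assigned to either gene, and the levels given for miR-34b-5p are those of this sequence. Its share of the miR-34b-5p counts was 96.6% to 100% in all 6 libraries. Among the 281 miRBase-named miRNAs with 100 or more counts, 16 (5.69%) had no count of the listed sequence. Among the 253 of them with a RefSeq hairpin, the most abundant sequence of 77 (30.4%) was not found inside it, so a leading sequence outside the RefSeq hairpin was not particular to this row. Both traits together, as in this row, were less common. Of these 253, 14 had no count of the listed sequence, and 5 of the 14 also had their leading sequence outside the hairpin. When the rows of miR-34b-5p and miR-34c-5p were summed, a choice made after the data were seen, the log2 fold change was -0.05 (edgeR adjusted p = 0.891). The 3p arm of miR-34b does not share this problem, since its listed sequence was counted in 5 libraries.

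**Figure D5:**
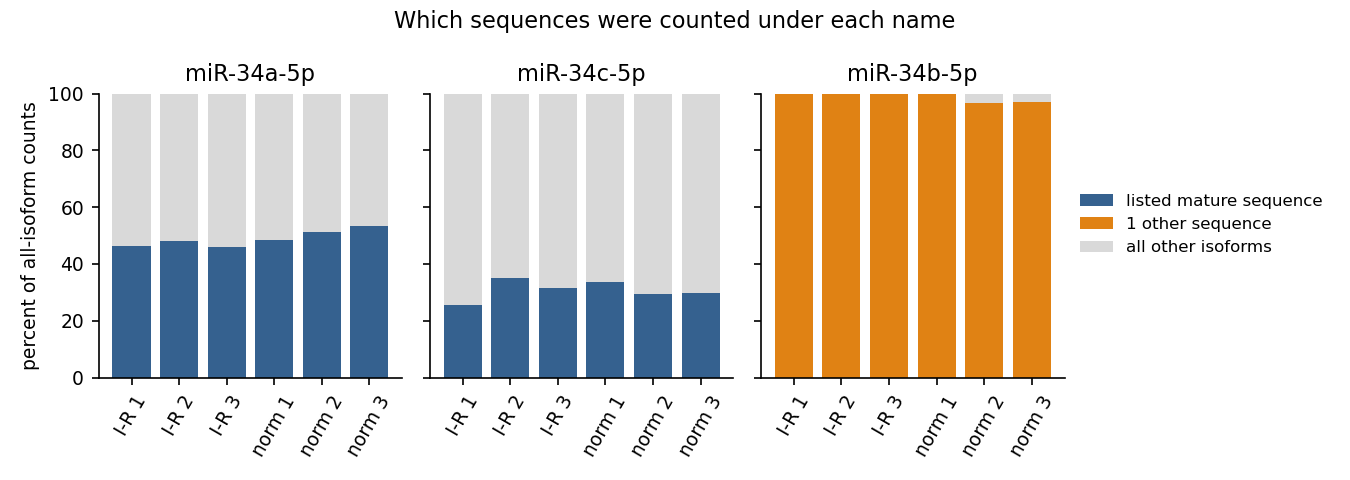
Share of each 5p member's all-isoform counts (y axis, percent) in each library (bars) held by the listed mature sequence (blue), by the 1 other most abundant sequence where that is not the listed one (orange) and by all other isoforms (grey). The listed sequence holds 46.1% to 53.5% for miR-34a-5p, 25.5% to 34.9% for miR-34c-5p and none for miR-34b-5p.

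Other miRNAs tied to p53 were read beside the family from 2 lists. In the list of 10 miRNAs that p53 induces or whose maturation it promotes, as known mainly from human cells, 9 were tested and 0 passed edgeR's test in either direction (0 had an unadjusted p under 0.05, and 0 passed DESeq2 or limma-voom). Their median log2 fold change was -0.17, against -0.40 over miRBase-named miRNAs, and it was above 0 (0.07) when scaled by total counts and 0.17 when the factors came from miRBase-named miRNAs. With factors from miRBase-named miRNAs 1 of the 9, miR-145-5p, passed as higher (log2 fold change 0.39; edgeR adjusted p = 0.0281), as did 13 of the 305 miRBase-named miRNAs. With upper-quartile factors miR-143-3p (-0.64; edgeR adjusted p = 0.0277) and miR-16-5p (-0.73; edgeR adjusted p = 0.0354) passed as lower, as did 145 of the 305. With exact mature sequence counts 1 of 6 tested, miR-194-5p, named here after its values were seen, passed as higher (0.90; edgeR adjusted p = 0.0495), as did 6 of 198. The most abundant was miR-143-3p, a smooth muscle miRNA, at 119300 ± 3972 CPM in ischemia-reperfusion hearts and 130300 ± 12260 CPM in normal hearts (SD, n = 3 each; edgeR adjusted p = 0.439). miR-145-5p, from the same cluster, was at 2750 ± 426 CPM in ischemia-reperfusion hearts and 2647 ± 59.8 CPM in normal hearts (SD, n = 3 each; edgeR adjusted p = 0.786).

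In the list of 6 miRNAs reported in human cells to bind the messenger RNA of p53 itself, 5 were tested. By edgeR's test 3 passed as lower and 0 as higher, with a median log2 fold change of -0.59. All 5 had an unadjusted edgeR p under 0.05. DESeq2 and limma-voom passed 3 each, but not the same 3 as edgeR. miR-30d-5p was at 23520, 23270 and 27550 CPM in ischemia-reperfusion hearts, against 36970, 41330 and 47420 CPM in normal hearts (log2 fold change -0.76 ± 0.15, SE; edgeR adjusted p = 0.00653). Its groups did not overlap, as was the case for 41.0% of all tested miRBase-named miRNAs. Reads of the near-identical miR-30a-5p and miR-30e-5p may be split with it. miR-25-3p, of the miR-106b cluster, was at 679 ± 81.5 CPM in ischemia-reperfusion hearts and 979 ± 64.4 CPM in normal hearts (SD, n = 3 each; log2 fold change -0.53; edgeR adjusted p = 0.0260). miR-504 was at 117 ± 6.36 CPM in ischemia-reperfusion hearts and 180 ± 39.2 CPM in normal hearts (SD, n = 3 each; log2 fold change -0.62; edgeR adjusted p = 0.0439). The other 2 tested members, miR-125a-5p and miR-125b-5p, had log2 fold changes of -0.59 and -0.57 (edgeR adjusted p = 0.0532 and 0.0734). miR-125a-5p passed the other 2 tools (DESeq2 adjusted p = 0.0435, limma-voom adjusted p = 0.0485). miR-504 passed neither (DESeq2 adjusted p = 0.0701, limma-voom adjusted p = 0.0652).

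Falls of this size were common in the table, where 13.8% of miRBase-named miRNAs passed as lower. None of the 3 passed in a fit of miRBase-named miRNAs by themselves (edgeR adjusted p = 0.115 for miR-30d-5p, 0.547 for miR-25-3p and 0.515 for miR-504). In that fit 5 of all 305 passed as higher and 3 as lower. Scaled by factors from miRBase-named miRNAs, miR-30d-5p passed (edgeR adjusted p = 0.032), whereas miR-25-3p (0.255) and miR-504 (0.365) did not. With those factors 13 of the 305 passed as lower. The call of miR-30d-5p was kept whichever 1 library was left out. The call of miR-25-3p was lost without ischemia-reperfusion replicate 1 (0.106) or 2 (0.127) and without normal replicate 2 (0.0875) or 3 (0.0603), with log2 fold changes of -0.37, -0.51, -0.56 and -0.60 in that order. That of miR-504 was lost without any library but normal replicate 2 (0.0576 to 0.174), with log2 fold changes of -0.70 to -0.50.

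Markers of epithelia, ciliated cells included, were read because miR-34b, miR-34c and miR-449a are known from such cells. Of 10 listed, 8 were in the table, each with some counts, and they summed to 0.00494% to 0.0103% of counts in ischemia-reperfusion libraries and 0.00409% to 0.00651% in normal libraries. The highest sum was in ischemia-reperfusion replicate 3, where miR-34c-3p had 4 counts. The lowest was in normal replicate 3, which had 5 counts of miR-34c-3p, the most of any library. The list holds miR-449a-5p itself and 2 miRNAs of the p53-induced list, miR-141-3p and miR-200c-3p. The part of such cells in the levels of miR-34b and miR-34c was not tested. The endothelial list summed to 5.73% to 7.13% of counts in ischemia-reperfusion libraries and 5.45% to 10.6% in normal libraries. The leukocyte list summed to 0.0538% to 0.0581% in ischemia-reperfusion libraries and 0.0525% to 0.0630% in normal libraries, so both sums overlapped between the groups. Single markers did pass as lower, as 13.8% of miRBase-named miRNAs did. Of 4 leukocyte miRNAs this was miR-142-5p (log2 fold change -0.63; edgeR adjusted p = 0.0248). Of 7 heart muscle miRNAs it was miR-499-5p (-0.70; edgeR adjusted p = 0.0307). The erythroid list, at 0.164% to 0.203% in ischemia-reperfusion libraries and 0.238% to 0.263% in normal libraries, did not overlap, but its members went different ways. Such a separation was common, since single miRBase-named miRNAs did not overlap in CPM in 41.0% of those tested. miR-486, most of the sum, was at 1510 ± 277 CPM in ischemia-reperfusion hearts and 2598 ± 233 CPM in normal hearts (SD, n = 3 each; edgeR adjusted p = 0.0103). miR-451-5p was at 213 ± 157 CPM in ischemia-reperfusion hearts and 91.9 ± 59.0 CPM in normal hearts (SD, n = 3 each; edgeR adjusted p = 0.195). miR-122-5p of liver cells held 0.00814% to 0.0972% in ischemia-reperfusion libraries and 0.00273% to 0.00753% in normal libraries (log2 fold change 3.26; edgeR adjusted p = 0.0202). The neural list held 0.00908% to 0.0135% in ischemia-reperfusion libraries and 0.00665% to 0.00701% in normal libraries. Like the erythroid range, the liver and neural ranges did not overlap between the groups. The part of blood, liver or nerve RNA in the members' levels was not tested.

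Over the 6 libraries, the miRBase-named miRNAs whose log2(CPM + 1) ran closest to that of miR-34a-5p were miR-872-3p (Pearson r = 0.993), miR-484 (0.987), miR-101b-3p (0.971), miR-22-5p (0.960) and miR-24-3p (0.960), out of 304 compared. All 5 were highest in normal replicate 3, as miR-34a-5p was. These values describe 6 points that share group and depth. Of the 5, miR-484 (log2 fold change -3.28; edgeR adjusted p = 0.0189) and miR-24-3p (-0.58; edgeR adjusted p = 0.0490) passed as lower. miR-872-3p was at 9.06, 8.22 and 10.01 CPM in ischemia-reperfusion hearts, against 10.5, 11.1 and 14.5 CPM in normal hearts. The members from chromosome 8 were not close to miR-34a-5p by this measure. miR-34b-3p came 166th (r = 0.509), miR-34b-5p 218th (0.245) and miR-34c-5p 225th (0.217).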

How the data were processed

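Small RNA from 6 rat hearts was adaptor-ligated, amplified, size selected and sequenced on an Illumina NextSeq, per the labels' protocols. Novoalign 2.07.11 is named in the submitters' processing notes, without its role; a genome build, miRBase release or mismatch limit was not given in the sources used here. Per the file headers, the deposited table holds 3 kinds of raw tag counts per library: tags equal to the mature sequence, tags of the leading sequence, and tags of any isoform. Normalized values are deposited as whole numbers by a method that is not given and were treated as a score. The authors' deposited comparison gives group mean scores, their ratio as a fold, and a p-value with its false discovery rate. 30 further columns of per-sample values were not used.

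Blank cells were read as 0. Where an ID had more than 1 precursor, its row of most counts was used. All-isoform counts of all entries were tested in R 4.3.3 with edgeR 4.0.16 (filterByExpr, minimum count 10; TMM; robust quasi-likelihood F test; Benjamini-Hochberg adjustment over 524 entries, threshold 0.05). SE are the log2 fold change over the square root of F. Ratios used counts plus 0.5 and two-sided exact permutation tests over libraries. Single shares have 95% Wilson intervals. DESeq2 1.42.0 and limma 3.58.1 were alternatives. On data simulated for this comparison, with 485 entries fitted, edgeR called 31.6% of changes of 1 log2 unit, 82.6% of 2 units and 1.68% of unchanged entries. The simulation raised as many entries as it lowered, whereas in the real data 33.4% passed as higher and 9.35% as lower. Its rates therefore leave out errors from library scaling.

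The members, lists, tests and alternatives were chosen with earlier results of these data known. The rule for naming took the 5 members, miRNAs of the seed and p53 lists that were called or among the most abundant, and the 5 miRNAs most correlated with the most abundant member; miR-125a-5p and miR-125b-5p are named beyond it to complete their list.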

Additional observations from a re-analysis of the deposited data

How the results depend on the processing

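miR-34a-5p stayed below 0 in log2 fold change under all 13 alternatives that kept every library (-0.87 to -0.0073), and it passed only with upper-quartile factors (-0.87; edgeR adjusted p = 0.0151), which took the number of members called to 1. Leaving out 1 library gave -0.51 to -0.27 and no call. miR-34b-5p was above 0 with the authors' normalized values (0.062), miRBase-named miRNAs by themselves (0.22), factors taken from these (0.22), RLE factors (0.0049) and total counts (0.11), and ran from -0.42 to 0.085 when 1 library was left out. miR-34c-5p turned positive with DESeq2 (0.091), RLE factors (0.087), the authors' normalized values (0.16), exact mature sequence counts (0.22), factors from miRBase-named miRNAs (0.30), limma-voom (0.0096), miRBase-named miRNAs fitted alone (0.32), most abundant sequence counts (0.076) and total counts (0.20), and ran from -0.28 to 0.17 when 1 library was left out. miR-34b-3p ran from -1.09 to 0.00017, and could not be tested without a normal library. None of these miR-34b and miR-34c values passed. miR-34c-3p was fitted only with no filter (0.027; edgeR adjusted p = 0.992). The cause of these turns was not tested.

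Calls among the p53 lists numbered 3 in the main setting. They were 7 with upper-quartile factors and 5 with no filter. They were 1 with total counts, most abundant sequence counts, the authors' normalized values or the replicate block. There were 0 in a fit of miRBase-named miRNAs by themselves, and leaving out 1 library gave 1 to 3. Lower calls over all miRBase-named miRNAs moved too. They numbered 42 of 305 in the main setting, 145 with upper-quartile factors and 47 of 502 with no filter. They were 16 of 305 with total counts, 24 of 264 with most abundant sequence counts and 17 of 305 with the authors' values. The replicate block gave 15 of 305 and the separate fit 3 of 305. For miR-34c-3p to miR-34c-5p the group difference in log2 ratio turned positive with a pseudocount of 1 (0.32). It did so too with exact or most abundant sequence counts (0.67 each). By both measures miR-34c-3p had counts in normal replicate 2 alone (4 counts), so elsewhere the pseudocount stood in for it. When 1 library was left out the differences in log2 ratio ran from -0.98 to 0.41 for miR-34c-3p to miR-34c-5p, from -1.74 to 0.047 for miR-34b-3p to miR-34b-5p, from -0.19 to 0.13 for miR-34b-5p to miR-34c-5p and from -0.55 to -0.22 for miR-34a-5p to miR-34c-5p. Differences in the exact share then ran from -5.59 to -3.02 percentage points for miR-34a-5p, from -17.6 to 49.0 for miR-34b-3p and from -2.40 to 2.32 for miR-34c-5p.

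The labels do not say whether a shared replicate number pairs hearts. Same-numbered hearts had correlations of -0.24, 0.012 and -0.16 between their deviations from the group means, and the other pairs -0.12 to 0.22. These correlations were not tested, and with so few hearts they neither show nor exclude pairing. With the replicate block the log2 fold change of miR-34a-5p was -0.36 (edgeR adjusted p = 0.185), no member was called, and calls over all entries numbered 152 in place of 224.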
